A study of Mus musculus with 20 samples.

Results

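Vehicle arrays taken at 6 h were set against vehicle arrays taken at 1 day and 4 days, in the hypothalamus of diet-induced obese mice, so that no drug separated the groups. The comparison used 9 of the 20 arrays of the study, chosen by their treatment and time labels: 3 vehicle arrays at 6 h, and 3 each at 1 day and 4 days, which were joined as 6 later arrays. Every mouse was a male C57BL/6J that went onto a diet with 45% fat at 4 weeks of age and stayed on it for 16 weeks. The vehicle was dimethyl sulfoxide (DMSO), given into the peritoneum at 25 µl per day. The remaining 11 arrays came from like mice given celastrol, a plant triterpenoid, dissolved in DMSO. By time there were 4 of them labelled 6 h, 4 labelled 1 day and 3 labelled 4 days, and the labels give the celastrol dose, 250 µg/kg, beside the 6 h time. The arrays used hold neither lean nor uninjected mice, and the labels state no clock time, scan date or array batch. Nor do they settle whether a time counts from the first or from the last injection. Elapsed time, the number of injections and the occasion of tissue collection therefore cannot be told apart.

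The hypothalamus sets food intake, body temperature and hormone release, and it senses glucocorticoids, the adrenal steroids that rise with stress and with the daily active phase. Bound glucocorticoid receptor enters the nucleus and switches on genes such as Sgk1, Tsc22d3, Fkbp5 and Nfkbia, through DNA elements near them. The thalamus, a relay for sensory signals to the cortex, lies directly above the hypothalamus. Bulk tissue cannot tell a smaller number of cells of a type from less RNA in each cell.

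Values are log2 intensities of 1 probe set per gene, and every difference is the mean at 6 h minus the later mean with its standard error (SE). A gene passed when its Benjamini-Hochberg adjusted p was under 0.05 in limma's moderated test over 14129 genes. The array medians lay between 8.60 and 8.65, and the SE of a difference had a median of 0.056. The labels call the arrays biological replicates, and p-values measure the spread between these arrays. In the first principal component of what the group means left over, the third vehicle arrays at 6 h and at 1 day stood apart, scoring 11.4 and 9.61, against -6.13 to 5.32 on the other 18. The 16 tested marker genes of hypothalamic nuclei had a mean level of 10.17 to 10.27 on the 3 arrays at 6 h and 10.15 to 10.28 on the 6 later arrays. Single markers differed by -0.31 to 0.25 and none passed. Of the 16, 5 did not overlap between the groups, 2 of them higher at 6 h, against 5.28% of all genes tested.

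At 6 h the vehicle arrays had higher levels of 4 glucocorticoid-induced genes, of Actc1, the cardiac actin gene, and of Prkcd, a kinase gene rich in thalamus, and lower levels of Wdr83os, a small membrane protein of the endoplasmic reticulum. Of 14129 genes, 66 passed (0.467%), 30 higher at 6 h (0.212%) and 36 lower (0.255%). On 64 of the 66 the 3 and the 6 arrays did not overlap, as was the case for 5.28% of all genes tested. Differences were mostly small: 7 of the 66 reached 1.5-fold, 6 of them higher and 1 lower, and 2 reached 2-fold. Over all genes tested, 51.3% were higher at 6 h and the median difference was 0.0022. The 6 higher genes past 1.5-fold were Actc1, Prkcd, Sgk1, Ptpn3, Myh6 and a small nucleolar RNA gene.

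The number that passed rested on single arrays and on the estimate of the spread. Without vehicle replicate 3 at 6 h, 9 genes passed, among them 6 of the 66: Actc1, Layn, Myh6, Sgk1, Wdr83 and Wdr83os. Without replicate 1 or replicate 2 at 6 h, 90 and 51 genes passed, 39 and 31 of them among the 66. Leaving out replicate 1, 2 or 3 at 1 day left 40, 22 and 17 genes, and leaving out replicate 1, 2 or 3 at 4 days left 22, 23 and 23. Actc1, Myh6, Sgk1 and Wdr83os passed in all of these 9 fits. Myh6 was bright enough to be tested because its 6 h arrays were high, so its passing is no support. Without both arrays that stood apart, Wdr83os alone passed. With the spread estimated from the 9 vehicle arrays alone, 7 genes passed with a mean per time and 11 with the later arrays as 1 group.

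Sgk1, a kinase gene that glucocorticoids and osmotic stress induce, had log2 intensities of 10.16, 10.73 and 10.45 on the 3 arrays at 6 h. Later it had 9.58, 9.68 and 9.26 at 1 day, and 9.54, 9.72 and 10.01 at 4 days. Every array at 6 h was above every later array. The means were 10.45 ± 0.29 at 6 h (SD, n = 3) and 9.63 ± 0.25 later (SD, n = 6), a difference of 0.81 ± 0.12 (SE, adjusted p = 0.0039), or 1.76-fold.

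The promoter of Sgk1 is shown because 1 of its 6 start sites in the RefSeq table carries the full palindrome that the glucocorticoid receptor binds, AGAACA and its reverse complement TGTTCT around any 3 bases. It is in capitals, 189 bases before the start site. The window is chr10:21993640-21993939 of GRCm38.p6, plus strand, and runs from 250 bases before the start to 50 bases from it on.
Sgk1: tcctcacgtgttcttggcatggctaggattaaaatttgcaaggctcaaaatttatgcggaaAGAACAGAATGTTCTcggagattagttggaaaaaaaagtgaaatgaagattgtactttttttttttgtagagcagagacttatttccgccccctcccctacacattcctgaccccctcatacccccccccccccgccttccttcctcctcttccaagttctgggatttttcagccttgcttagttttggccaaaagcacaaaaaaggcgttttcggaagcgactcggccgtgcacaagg
Searched on both strands, this palindrome stood in 3 of 32851 such windows of all genes (0.00913%), and in the windows of 1 of the 19 list genes that matched the table. A match is a description of letters, and the absence of one here says nothing of elements farther away.

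Glucocorticoid-induced genes were higher at 6 h in 21 of 21 tested members, with a median difference of 0.42. The 21 include Lcn2, which is no support for the list. Of the 21, 4 passed, Sgk1, Nfkbia, Ddit4 and Arrdc2, and the arrays of 12 did not overlap. Over all genes tested, 51.3% were higher, 0.212% passed as higher and 3% were higher without overlap. Nfkbia, which encodes the NF-kB inhibitor I-kappa-B alpha, had 9.56, 9.90 and 9.63 at 6 h, against 9.10, 9.12 and 8.92 at 1 day and 9.12, 9.14 and 9.38 at 4 days. Its difference was 0.57 ± 0.11 (adjusted p = 0.0277). Ddit4, a stress-induced brake on mTORC1, had 9.66, 10.05 and 9.72 at 6 h, against 9.29, 9.34 and 9.28 at 1 day and 9.05, 9.26 and 9.41 at 4 days. Its difference was 0.54 ± 0.099 (adjusted p = 0.0263), again with no overlap. Arrdc2, an arrestin domain gene, had 8.38, 8.99 and 8.55 at 6 h and 7.96 to 8.14 on the later arrays, a difference of 0.56 ± 0.11 (adjusted p = 0.0303). In the fits that each left out 1 array, Ddit4 passed in 5 of 9, Nfkbia in 3 and Arrdc2 in 2, with adjusted p up to 0.0915, 0.124 and 0.137. None of the 4 passed with the spread taken from the vehicle arrays alone, where adjusted p was 0.0718 and 0.0724 for Sgk1, 0.06 and 0.0526 for Nfkbia, 0.0724 and 0.0534 for Ddit4, and 0.113 and 0.0753 for Arrdc2, with 3 means and 2 means.

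Members of the list that did not pass had differences of up to 1.25. Tsc22d3, which encodes the leucine zipper protein GILZ, had 10.13, 10.57 and 10.28 at 6 h, above each later array at 9.70 to 10.04 (0.44 ± 0.11, adjusted p = 0.0791). Fkbp5, a co-chaperone that restrains the glucocorticoid receptor, had 8.88, 9.50 and 9.05 at 6 h and 8.61 to 8.85 later (0.42 ± 0.16, adjusted p = 0.275). Klf9, Sult1a1 and Zbtb16 differed by 0.27, 0.58 and 0.61 (adjusted p = 0.0767, 0.0737 and 0.143). Replicate 2 was the highest of the 3 arrays at 6 h for Sgk1, Nfkbia, Ddit4, Arrdc2, Tsc22d3 and Fkbp5. Lcn2, an iron-binding acute phase protein, carried this furthest, with 7.02, 9.85 and 7.56 at 6 h and 6.61 to 7.12 later. Its difference of 1.25 ± 0.52 did not pass (adjusted p = 0.322), and replicate 1 at 6 h lay within the later range. The dim filter left out genes with a mean under 7.04 over all 20 arrays. The later vehicle mean of Lcn2 lay below that value, so Lcn2 was tested because other arrays were high and is no support for the list. The mean level of the list was 9.99, 10.51 and 10.13 at 6 h, and 9.69 to 9.88 on the later arrays. Without replicate 2 at 6 h the median difference of the list was 0.24, and without both arrays that stood apart it was 0.45, with 20 of 21 members higher.

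**Figure D1:**
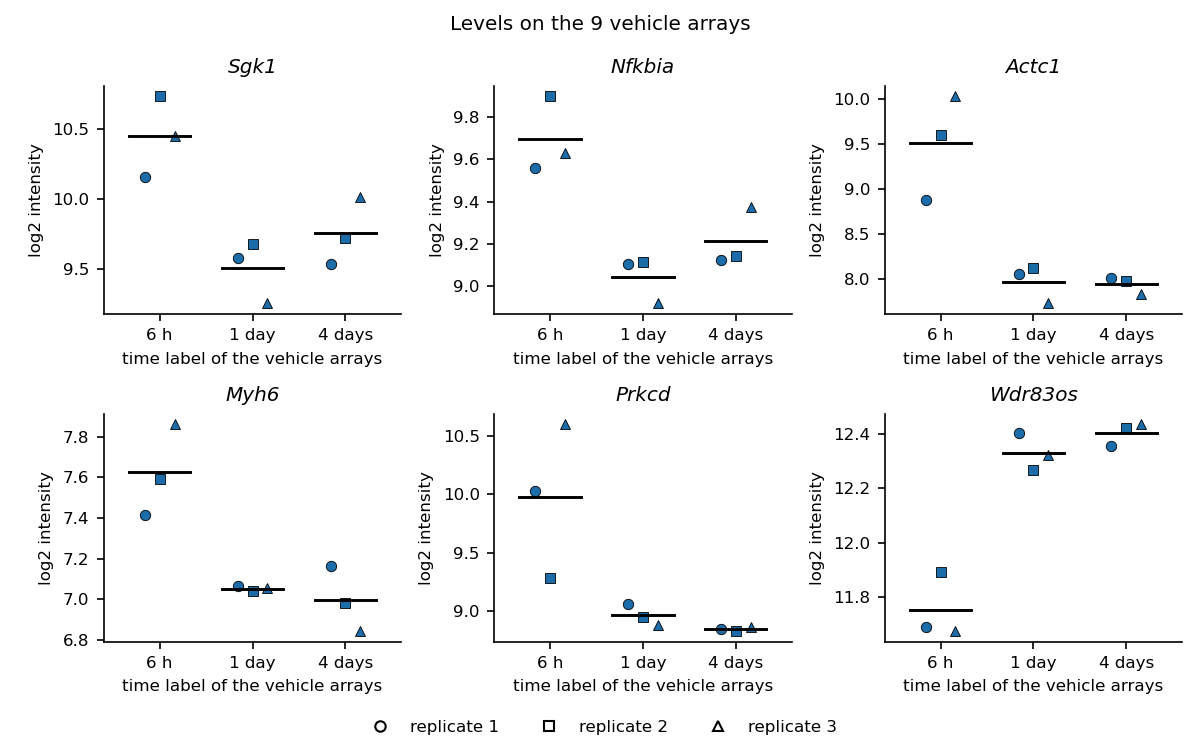
Log2 intensity (y axis) of 6 genes on the 9 vehicle arrays, by time label (x axis). Symbols mark the replicates and bars the group means. Sgk1, Nfkbia, Actc1, Myh6 and Prkcd sit higher on the 3 arrays at 6 h than on each later array, and Wdr83os lower.

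Heart muscle genes included the largest difference. Actc1, the cardiac alpha-actin of the sarcomere, had 8.89, 9.61 and 10.03 at 6 h, against 8.06, 8.13 and 7.73 at 1 day and 8.02, 7.98 and 7.83 at 4 days. Its means were 9.51 ± 0.58 at 6 h (SD, n = 3) and 7.96 ± 0.15 later (SD, n = 6). The difference of 1.55 ± 0.21, or 2.93-fold, was the largest among the genes that passed (adjusted p = 0.0039). Myh6, the alpha myosin heavy chain of heart, had 7.42, 7.59 and 7.86 at 6 h, against 7.06, 7.04 and 7.05 at 1 day and 7.17, 6.98 and 6.84 at 4 days (0.60 ± 0.084, adjusted p = 0.0039). Its later mean of 7.03 lay below the dim filter, which left out genes with a mean under 7.04 over all 20 arrays, so Myh6 was tested because its 6 h arrays were high and is no support for the group. With the filter at the 50th percentile neither Myh6 nor Actc1 was tested.

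A list of 27 heart genes was written down after Actc1 and Myh6 had been seen, so its counts describe and test nothing. Of the 27, Myl2, Casq2, Ankrd1, Nexn and Myom2 fell under the dim filter and 22 were tested. The 22 include Myh6, which is no support for the group. Of all genes tested, 51.3% were higher at 6 h and 0.212% passed as higher. Of the 22, 18 were higher and 7 passed the threshold, Myh6 among them, with a median of 0.22. Besides Actc1 and Myh6 these were the troponins Tnnt2 (0.38 ± 0.072, adjusted p = 0.0263) and Tnnc1 (0.50 ± 0.096, adjusted p = 0.0277), myoglobin Mb (0.41 ± 0.077, adjusted p = 0.0263), titin Ttn (0.27 ± 0.052, adjusted p = 0.0276) and the natriuretic peptide Nppb (0.35 ± 0.073, adjusted p = 0.0336). Tnnt2 had 9.04, 9.20 and 9.25 at 6 h, against 8.88, 8.90 and 8.76 at 1 day and 8.80, 8.56 and 8.80 at 4 days. Mb was even across the 3 arrays at 6 h, at 8.09, 8.10 and 8.03, with later arrays at 7.53 to 7.80. Pln, which restrains the calcium pump of heart muscle, had 7.58, 7.59 and 8.58 at 6 h and 7.04 to 7.20 later, without passing (0.80 ± 0.20, adjusted p = 0.0917). Of the 15 that did not pass, Pln, Tnni3 (0.35, adjusted p = 0.0687), Myl3 (0.35, adjusted p = 0.0791) and Nppa (0.32, adjusted p = 0.178) were higher on each array at 6 h than on each later array. The other 11 overlapped and differed by -0.07 to 0.16, among them the beta myosin gene Myh7 (-0.00028) and the calcium release channel Ryr2 (-0.07). Of all 22, 11 were higher without overlap, as were 3% of all genes tested.

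The mean level of the 22 heart genes, Myh6 included, was 8.26, 8.35 and 8.46 at 6 h and 8.01 to 8.15 later, so the groups did not overlap. Among markers of other contractile and vessel cells, 7 of 9 skeletal muscle genes were higher at 6 h, with a median of 0.04. Of the 9, 2 passed, Mb and Tnnc1, which both lists hold, against 0.212% of all genes that passed as higher. Of the mural cell markers 5 of 11 were higher, of the endothelial 6 of 14 and of the erythrocyte 1 of 3, and none of these passed. The part of any admixed tissue in the heart gene difference was not tested. In fits that left out 1 array, Tnnt2 passed in 5 of 9, Tnnc1 and Ttn in 3, and Mb and Nppb in 2. Without both arrays that stood apart, Actc1 differed by 1.23 and Myh6 by 0.48 (adjusted p = 0.0787 for both), and the list median was 0.17.

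The Actc1 promoter is shown because a CArG box, the element bound by serum response factor at many muscle genes, lies 47 bases before its start site. It stands in capitals in the window chr2:114052826-114053125 of GRCm38.p6, minus strand, from the RefSeq table.
Actc1: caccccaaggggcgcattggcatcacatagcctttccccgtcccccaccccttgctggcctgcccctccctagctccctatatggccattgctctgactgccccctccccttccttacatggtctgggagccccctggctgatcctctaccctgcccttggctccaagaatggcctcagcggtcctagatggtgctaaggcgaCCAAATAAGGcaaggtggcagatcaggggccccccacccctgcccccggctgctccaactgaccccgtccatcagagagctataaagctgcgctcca
A CArG box, searched on both strands, stood in 1.63% of all such windows and in those of 4 of the 21 heart genes that matched the table, Actc1, Ldb3, Myl3 and Myl7. Of these 4, Actc1 passed.

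Prkcd, protein kinase C delta, which is abundant in relay neurons of the thalamus, had 10.03, 9.29 and 10.60 at 6 h, against 9.06, 8.95 and 8.88 at 1 day and 8.85, 8.83 and 8.87 at 4 days. Its difference was 1.06 ± 0.18, or 2.09-fold (adjusted p = 0.0168), and the lowest array at 6 h was still above the highest later array. It passed in 8 of the 9 fits that left out 1 array, the exception being that without replicate 3 at 6 h (adjusted p = 0.082), but not with the spread from the vehicle arrays alone (adjusted p = 0.122 and 0.0754). Of 13 thalamus markers, 11 were higher at 6 h and 2 passed, Prkcd and Rora, with a median of 0.30. Of all genes tested, 51.3% were higher and 0.212% passed as higher. The arrays of 5 of the 13 did not overlap, each higher at 6 h, against 3% of all genes. The members Plekhg1 (0.44, adjusted p = 0.0917), Rgs16 (0.30, adjusted p = 0.0906), Tcf7l2 (0.39, adjusted p = 0.163) and Zic1 (0.34, adjusted p = 0.195) did not pass.

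Rora, which encodes the nuclear receptor ROR alpha and also belongs to the clock list, had 10.52, 10.20 and 10.56 at 6 h and 10.05 to 10.19 later (0.30 ± 0.061, adjusted p = 0.0303). Prkcd, Rora, Plekhg1 and Rgs16 shared an order over the arrays at 6 h, with replicate 3 highest and replicate 2 lowest. The mean level of the 13 markers was 10.17, 10.02 and 10.39 at 6 h and 9.87 to 10.02 later, so replicate 2 at 6 h lay at the top of the later range. Rora passed in 1 of the 9 fits. Without replicate 3 at 6 h the list median was 0.20, and without both arrays that stood apart it was 0.14. Ptpn3, a tyrosine phosphatase gene outside every list, followed the same order, with 9.97, 9.45 and 10.36 at 6 h and 8.95 to 9.35 later. Its difference was 0.77 ± 0.14, or 1.71-fold (adjusted p = 0.0263), and it passed in 5 of the 9 fits. The share that dissected thalamus has in these differences was not tested.

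**Figure D2:**
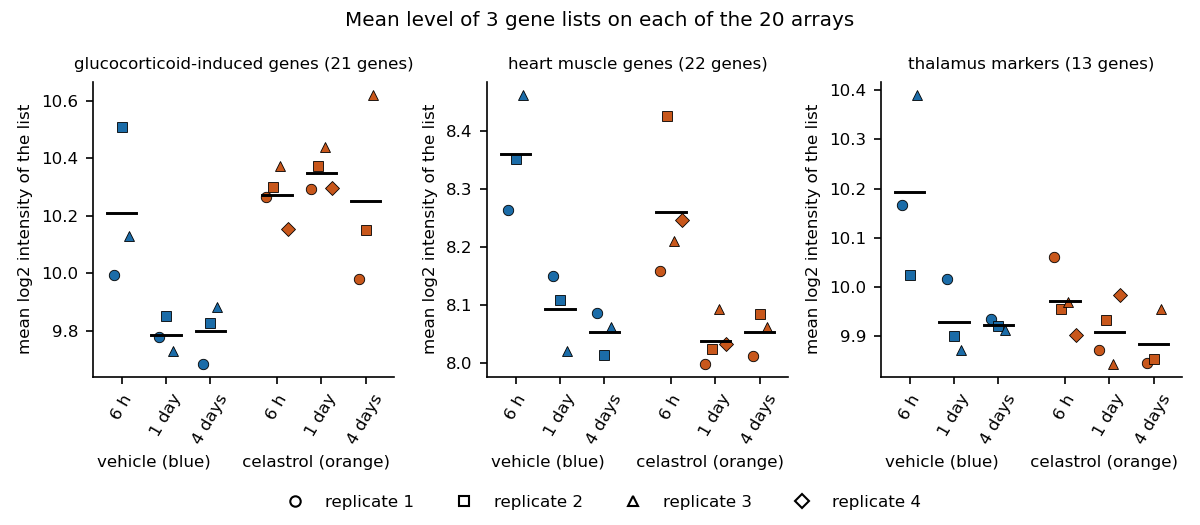
Mean log2 intensity of 3 gene lists (y axis) on each of the 20 arrays, by treatment and time label (x axis). Blue marks vehicle, orange celastrol, and bars the group means. On vehicle arrays the glucocorticoid list spans 9.99 to 10.51 at 6 h and 9.69 to 9.88 later, while the heart list is higher at 6 h in both treatments.

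Core clock genes oscillate through the day in most tissues. Of 23 tested members of the clock list, 16 were higher at 6 h, Rora was the 1 that passed, and the median difference was 0.05. The arrays of 4 did not overlap, each higher at 6 h. Over all genes tested, 51.3% were higher, 0.212% passed as higher and 3% were higher without overlap. Tsc22d3, which the glucocorticoid list also holds, had the largest difference, 0.44, without passing. The activators Arntl and Clock differed by -0.03 and 0.03. Among their repressors, Per1 differed by 0.17, Per2 by -0.05, Per3 by -0.02, Cry1 by -0.10 and Cry2 by 0.11. The nuclear receptors Nr1d1, Nr1d2 and Rorb differed by 0.07, -0.03 and -0.07. The output factors Dbp, Tef, Hlf and Nfil3 differed by 0.09, 0.05, 0.05 and 0.03, and Bhlhe40, Bhlhe41 and Ciart by 0.03, 0.14 and 0.12. Csnk1d, Csnk1e, Fbxl21 and Usp2 differed by 0.05, 0.06, -0.03 and 0.19.

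Per1, which both light and glucocorticoids induce, had 10.07, 10.22 and 10.15 at 6 h, against 9.94, 10.04 and 9.89 at 1 day and 9.92, 10.07 and 10.02 at 4 days. The lowest array at 6 h and the highest later array were level at this rounding, and the difference did not pass (adjusted p = 0.127). Of 11 genes of the suprachiasmatic nucleus, the master clock, 10 were higher at 6 h and none passed. The list of RNAs that track body temperature had 8 of 12 members higher and none that passed.

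Wdr83os had the smallest p in the comparison. It had 11.69, 11.89 and 11.68 at 6 h, against 12.40, 12.27 and 12.32 at 1 day and 12.36, 12.42 and 12.44 at 4 days. The means were 11.75 ± 0.12 at 6 h (SD, n = 3) and 12.37 ± 0.065 later (SD, n = 6), and the difference was -0.61 ± 0.053, or 1.53-fold lower (adjusted p = 7.64e-06). It passed in every fit that left out 1 array and under each of the other 11 alternatives tried, both arrays that stood apart left out among them (-0.58, adjusted p = 0.000663). Wdr83, the gene for a WD repeat scaffold protein that starts on the opposite strand beside it, had 9.65, 9.74 and 9.84 at 6 h and at least 9.87 on each later array (-0.20 ± 0.040, adjusted p = 0.0279). Wdr83 passed in 2 of the 9 fits that left out 1 array.

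The stretch between the start sites of Wdr83 and Wdr83os is shown because both genes were lower at 6 h. The start sites lie 217 bases apart in the RefSeq table, and the 216 bases between them are chr8:85080747-85080962 of GRCm38.p6, printed on the strand of Wdr83os with no letters marked.
Wdr83os: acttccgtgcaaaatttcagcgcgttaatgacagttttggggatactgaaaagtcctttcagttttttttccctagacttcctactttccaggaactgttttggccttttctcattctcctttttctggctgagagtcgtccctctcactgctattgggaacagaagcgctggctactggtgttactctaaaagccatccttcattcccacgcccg

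Of the other genes lower at 6 h, the largest differences were small. Ly96, the MD-2 partner of the toll-like receptor TLR4, had 6.94, 7.43 and 7.34 at 6 h and 7.64 to 7.97 later (-0.53 ± 0.11, adjusted p = 0.0391). Frmd4b differed by -0.41 ± 0.072 (adjusted p = 0.0208), with 9.44, 9.67 and 9.64 at 6 h and 9.93 to 10.03 later. Acot2, a mitochondrial acyl-CoA thioesterase, had 9.78, 9.73 and 9.71 at 6 h, against 10.18, 10.30 and 10.21 at 1 day and 9.91, 10.03 and 10.09 at 4 days (-0.38 ± 0.071, adjusted p = 0.0263). Sncg, gamma-synuclein, had 10.35, 10.45 and 10.30 at 6 h and 10.62 to 10.78 later (-0.31 ± 0.049, adjusted p = 0.00879). Ntsr1, a neurotensin receptor, Creb5 and Myl6b differed by -0.34, -0.30 and -0.37 (adjusted p = 0.0277, 0.0199 and 0.0487). Ypel1, Tmem88b and Sec1 differed by -0.34, -0.32 and -0.31 (adjusted p = 0.0277, 0.0336 and 0.0454). A dimmer probe set of Ypel1 differed by 0.11. In the fits that left out 1 array, Sncg and Creb5 passed in 8 of 9, Frmd4b in 7 and Ntsr1 in 4. Acot2 and Ypel1 passed in 3, and Ly96, Myl6b, Tmem88b and Sec1 in 1.

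Genes of the oligodendrocyte lineage included Gjc3, a glial connexin, and Olig2, a transcription factor of oligodendrocyte precursors. Gjc3 had 11.72, 11.69 and 11.74 at 6 h, against 11.92, 11.99 and 12.05 at 1 day and 12.04, 11.95 and 12.09 at 4 days (-0.29 ± 0.051, adjusted p = 0.0216). Olig2 had 9.36, 9.49 and 9.49 at 6 h and 9.63 to 9.80 later (-0.24 ± 0.050, adjusted p = 0.0333). Of 12 oligodendrocyte markers, 9 were lower at 6 h, 1 passed and the median was -0.07. Of 10 precursor markers, 5 were lower and 1 passed, Olig2. Of all genes tested, 6884 of 14129 were lower and 0.255% passed as lower. Gjc3 passed in 6 of the 9 fits that left out 1 array, and Olig2 in none.

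Feeding genes mostly stayed under the threshold. Glp1r, the receptor for the satiety hormone GLP-1, had 10.41, 10.62 and 10.41 at 6 h, against 10.84, 10.71 and 10.70 at 1 day and 10.59, 10.74 and 10.77 at 4 days. It was lower at 6 h by the test (-0.25 ± 0.051, adjusted p = 0.0336), though its highest array at 6 h overlapped the later ones, and it passed in 2 of the 9 fits. Of 20 feeding-restraining genes, 8 were higher at 6 h and Glp1r was the 1 that passed, where 0.255% of all genes passed as lower. Of 14 feeding-promoting genes, 8 were higher and none passed. Pmch, the precursor of the appetite peptide MCH, had 12.64, 12.88 and 12.75 at 6 h and 12.94 to 13.04 later (-0.25, adjusted p = 0.0601).

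Inflammatory lists held few calls. Of 10 NF-kB genes, 7 were higher and 1 passed, Nfkbia, which the glucocorticoid list also holds. Of all genes tested, 51.3% were higher and 0.212% passed as higher. Of 14 acute phase genes, 11 were higher, Lcn2 among them, with a median of 0.17, and none passed. Osmr, a receptor subunit for oncostatin M, had 8.08, 9.29 and 8.64 at 6 h and 7.78 to 8.11 later (0.71, adjusted p = 0.136). Replicate 2 at 6 h was again the highest. Of 15 interferon genes, 3 were higher, with a median of -0.11, and none passed. Their median was -0.15 against 1 day and -0.02 against 4 days. At 4 days 15 of 15 were lower than at 1 day, as were 7223 of all 14129 genes, and none passed. Their mean level was 8.21, 8.16 and 8.35 at 1 day, highest on replicate 3, which stood apart. At 4 days it was 8.07, 8.11 and 8.15. Immediate early genes, which mark recent neuronal firing, were evenly split, 13 of 26 higher with a median of 0.0041, and none passed.

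No member passed in the lists for the unfolded protein response (3 of 22 higher, median -0.03), the NRF2 response (8 of 16 higher), cholesterol synthesis (11 of 15), oxidative phosphorylation (13 of 24), ribosomal proteins (6 of 20) or the proteasome (16 of 28). The same held for markers of neurons (10 of 16 higher), astrocytes (7 of 13), microglia (4 of 11), blood leukocytes (3 of 5), choroid plexus (5 of 8), meninges (2 of 11), pituitary (3 of 5), striatum (5 of 10) and cortex or hippocampus (6 of 10). Nor did any pass among genes of leptin and insulin signalling (13 of 19 higher), neuroendocrine peptides (8 of 17), hypothalamic transcription factors (14 of 21), hypothalamic nuclei (10 of 16), synaptic receptors (11 of 20), thyroid hormone response (5 of 10), ependymal cells and tanycytes (6 of 12) or fat cells (2 of 3). In the list of fasting and fatty acid oxidation genes 11 of 15 were higher, and Acot2 was the 1 that passed, lower at 6 h. Of all genes tested, 0.255% passed as lower.

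**Figure D3:**
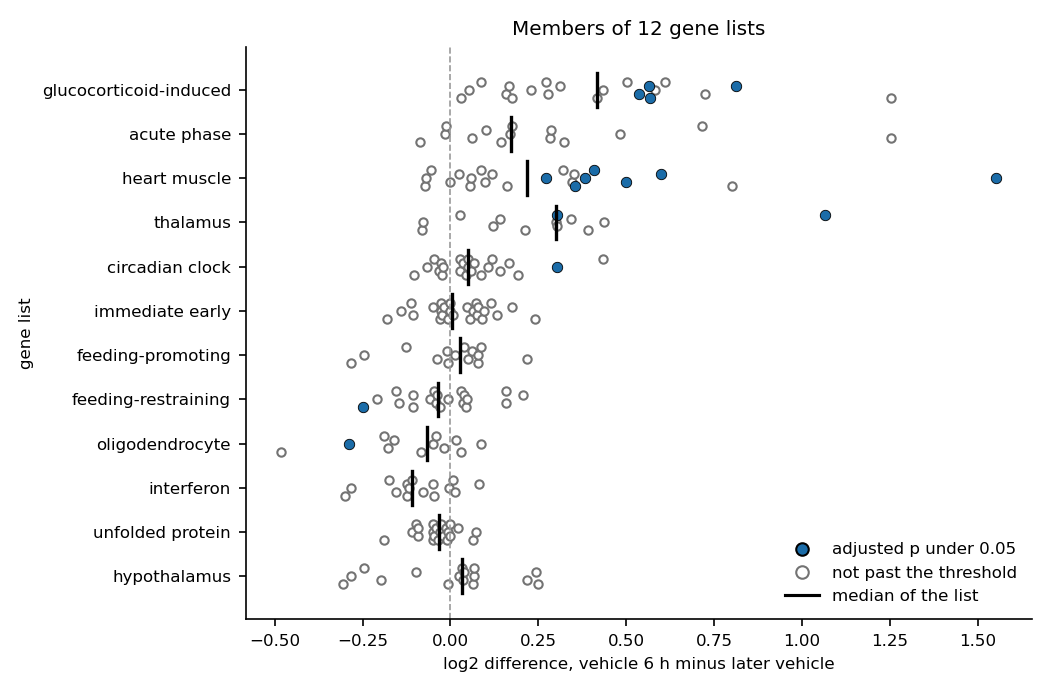
Log2 difference, vehicle at 6 h minus later vehicle (x axis), of each tested member of 12 gene lists (y axis). Filled points passed the threshold, open points did not, and bars mark list medians. The glucocorticoid list lies wholly above 0, while the clock, immediate early and hypothalamus lists have medians of 0.05, 0.0041 and 0.03.

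Each later time was also set against 6 h alone, and these comparisons share the 3 arrays at 6 h. Against 1 day, 14 genes passed (0.0991%), 9 higher (0.0637%) and 5 lower (0.0354%). Against 4 days 4 passed (0.0283%), Actc1, Myh6, Wdr83os and Sncg. Of these, Myh6 was tested because its 6 h arrays were high and is no support. Actc1 differed by 1.54 against 1 day and 1.57 against 4 days. Sgk1 differed by 0.94 ± 0.13 against 1 day (adjusted p = 0.00779). Wdr83os differed by -0.58 against 1 day (adjusted p = 0.000214) and -0.65 against 4 days (adjusted p = 3.1e-05). Plekhf1, a lysosomal adaptor gene, had 8.59, 9.03 and 8.69 at 6 h, against 8.07, 8.01 and 8.03 at 1 day and 8.40, 8.41 and 8.29 at 4 days, and it passed against 1 day (0.73). Without replicate 1, 2 or 3 at 6 h, 25, 47 and 1 genes passed against 1 day, and 14, 16 and 1 against 4 days. Without replicate 1, 2 or 3 at 1 day the first count was 4, 5 and 1, and without replicate 1, 2 or 3 at 4 days the second was 2, 1 and 1. Between the later groups, 4 days minus 1 day, limma passed 0 genes, with 1041 at an unadjusted p under 0.05 (7.37%, where the 6 h comparison had 12.4%). The number that passed was 147 with array weights and 4 with a trended, robust variance, so the later groups were not shown to be alike.

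The celastrol arrays at the same times gave a comparison whose means use none of the 9 vehicle arrays, though the estimate of the spread is shared. There 120 genes passed (0.849%), 31 higher at 6 h (0.219%) and 89 lower (0.63%). The count fell to 8 without replicate 2 at 6 h or replicate 1 at 4 days, was 199 without replicate 3 at 1 day and 102 without replicate 4 at 1 day, and lay between 12 and 53 without any other celastrol array. With arrays centred on their medians 42 genes passed, 27 higher and 15 lower, and with arrays quantile normalized again 76 passed, 42 higher and 34 lower. Of the 66 vehicle genes, 11 passed there too, with the same sign: Actc1, Myh6, Mb, Tnnt2 and Ttn higher, and Wdr83os, Wdr83, Dad1, Erc2, Katnal2 and Vps33b lower. The 11 were 16.7% of the vehicle genes and 9.17% of the celastrol genes. They include Myh6, which was tested because its 6 h arrays were high and is no support. Signs matched for 51 of the 66 (77.3%), against 55.7% of all genes tested.

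The largest heart gene difference and that of Wdr83os passed under both treatments. Actc1 had 8.66, 9.77, 8.71 and 8.80 in celastrol at 6 h and 7.78 to 8.03 later (1.06 ± 0.19, adjusted p = 0.0184). Celastrol replicate 2 at 6 h was also the highest of its group for Pln, at 8.27 against 7.31 to 7.37 on the other arrays at that time. Of the 22 heart genes, 20 were higher at 6 h in celastrol and 5 passed, Myh6 among them, with a median of 0.20. Over all genes tested the median was -0.02, 5854 of 14129 were higher and 0.219% passed as higher. Wdr83os had 11.96, 11.92, 11.88 and 12.07 at 6 h and 12.23 to 12.53 later (-0.44 ± 0.048, adjusted p = 0.000264). The vehicle difference minus the celastrol difference was 0.49 for Actc1, which did not pass (adjusted p = 0.497).

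Of the glucocorticoid-induced genes, 11 of 21 were higher at 6 h in celastrol, none passed and the median was 0.01. Sgk1 had a mean of 10.67 at 6 h, 10.67 at 1 day and 10.54 at 4 days in celastrol. Its celastrol difference was 0.07 ± 0.10, and the vehicle difference exceeded it by 0.74 ± 0.15 without passing (adjusted p = 0.133). The list level was 10.15 to 10.37 in celastrol at 6 h, 10.29 to 10.44 at 1 day and 9.98 to 10.62 at 4 days, above each later vehicle array. In the vehicle minus celastrol difference, 21 of 21 members were above 0, as were 8543 of all 14129 genes, and none passed. The 13 thalamus markers had levels of 9.90 to 10.06 in celastrol at 6 h and 9.84 to 9.98 later, and Prkcd differed there by 0.27 (adjusted p = 0.341).

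Of the clock list, 19 of 23 members were lower at 6 h in celastrol, as were 8275 of all 14129 genes. Per3 (-0.20, adjusted p = 0.0218) and Cry1 (-0.27, adjusted p = 0.0456) passed, where 0.63% of all genes passed as lower. Over oligodendrocyte markers, 12 of 12 were higher at 6 h in celastrol, as were 5854 of all 14129 genes. Their median was 0.11 and none passed. Gjc3 differed by 0.12 there, and its vehicle difference minus its celastrol difference was -0.40 ± 0.069 (adjusted p = 0.0541).

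The time difference itself differed between treatments for 2 of 14129 genes (0.0142%), and for 0 with the replicate number as a block (replicate block). Cyp4f15, a cytochrome P450 of fatty acid and leukotriene hydroxylation, had 9.48, 9.64 and 9.47 in vehicle at 6 h and 9.11 to 9.28 later (0.35 ± 0.061, adjusted p = 0.0199). In celastrol it had 9.17 to 9.46 at 6 h and 9.43 to 9.65 later (-0.22 ± 0.054, adjusted p = 0.0536). The vehicle difference minus the celastrol difference was 0.57 ± 0.082 (adjusted p = 0.0201). Insc, an adaptor for oriented cell division, had 7.40, 7.41 and 7.38 in vehicle at 6 h and 7.52 to 7.66 later (-0.20 ± 0.042, adjusted p = 0.0376), and differed by 0.15 in celastrol, where it did not pass. Its vehicle difference minus its celastrol difference was -0.35 ± 0.057 (adjusted p = 0.0422). No gene passed this test without vehicle replicate 1 or 2 at 1 day, vehicle replicate 1 at 4 days or celastrol replicate 2 at 6 h, and 5 passed without vehicle replicate 1 at 6 h. At an unadjusted p under 0.05 this difference of differences stood out for 44 of the 66 vehicle genes (66.7%) and 11.6% of all genes, though the 66 were chosen on the vehicle part of it.

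**Figure D4:**
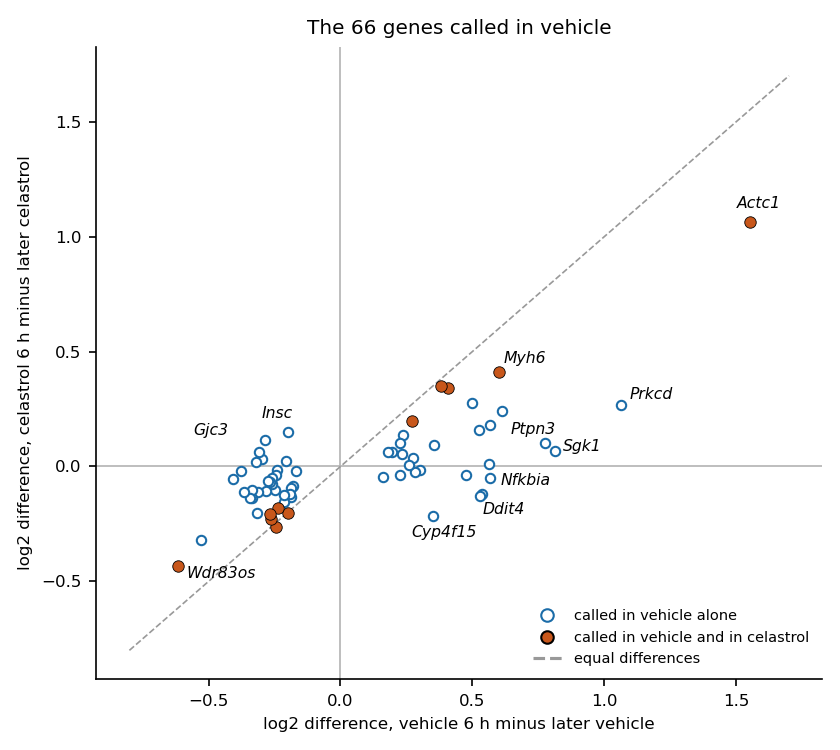
Log2 difference between 6 h and later arrays of the 66 genes that passed in vehicle, in vehicle (x axis) and in celastrol (y axis). Filled points passed in both treatments and the dashed line marks equal differences. Actc1 and Wdr83os lie far from 0 on both axes, while Sgk1 and Nfkbia lie near 0 in celastrol, at 0.07 and -0.05.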

How the data were processed

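The authors' deposited values are log2 intensities, 23492 probe sets on each of 20 arrays. Per the submitters' processing notes they were made with RMA, which corrects background, quantile normalizes and summarises probe sets on the log2 scale. Its version is not given in the sources used here. From these values, probe sets with exactly 1 gene symbol (20228) were kept, 1399 with several symbols and 1865 with none were left out, and the brightest stood for each of 18704 genes. Genes under the 25th percentile of mean intensity (4575) were left out as dim.

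Differences were tested two-sided with limma 3.58.1 in R 4.3.3, fitting 6 group means (14 residual and 4.92 prior degrees of freedom), eBayes and Benjamini-Hochberg adjustment. Celastrol arrays entered the spread. The number of arrays limits the precision. The members and the 42 gene lists were chosen with earlier results of these data known, and 1 list had no tested member. Lists were described by counts and medians.

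Genes were drawn by a rule, and not every gene it picked is named. It took the 10 largest differences each way among genes that passed without overlap. It also took each clock member, up to 4 members of each list and 5 each way of other comparisons, by smallest p. Predicted and small RNA genes went unnamed. Dad1, Erc2, Fkbp5, Katnal2, Layn, Lcn2, Ldb3, Myh7, Myl3, Myl7, Nppa, Nppb, Pln, Ryr2, Sult1a1, Tcf7l2, Tnni3, Ttn, Vps33b, Wdr83, Zbtb16 and Zic1 are named outside it, chosen after their values were seen. Promoters are from RefSeq, GRCm38.p6, 27025 genes.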

Additional observations from a re-analysis of the deposited data

Results flagged for a closer look

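Among the 6 later vehicle arrays, Hlf, a clock output factor, had 10.61 on replicate 3 at 4 days and 10.54 to 10.56 on the others, so that 0.687 of the whole range lay between that array and its nearest neighbour. It was the 1 of 84 groups of arrays examined in which the highest or lowest array was that far from the rest, and chance gives about 5% of groups.

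The time differences of Cyp4f15 and Insc had opposite signs in vehicle and celastrol, though neither gene passed in celastrol (adjusted p = 0.0536 for both). The difference between the treatments was tested. For Cyp4f15 the vehicle difference minus the celastrol difference was 0.57, and for Insc it was -0.35.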

How the results depend on the processing

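Signs are not given as stability for the 66 genes, since groups that do not overlap fix the sign for 64 of them, and 43 of the 66 were tested with the dim filter at the 50th percentile. The count of 66 was 22 with array weights, 125 with a trended, robust variance, 7 with vehicle arrays alone and 3 means, 11 with vehicle arrays alone and 2 means, 9 to 90 when 1 array was left out, and 1 without both arrays that stood apart, an alternative added after seeing the data. Between 54 and 86 genes passed under centring, quantile normalization, the other dim filters and means of probe sets.

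Against 1 day, the 14 genes became 46 after quantile normalization (20 higher, 26 lower), 24 with no dim filter, 63 with the filter at the 50th percentile, 24 with array weights, 79 with the trended variance, 2 with vehicle arrays alone, 1 to 47 when 1 array was left out and 1 without both arrays. Against 4 days, the 4 became 16, 30, 40 and 1 under quantile normalization, the higher filter, the trended variance and vehicle arrays alone, 1 to 16 when 1 array was left out and 1 without both arrays. Between 4 days and 1 day, 147 passed with array weights and 4 with the trended variance. In celastrol the 120 became 42 centred, 76 after quantile normalization, 26 and 394 with no filter and the higher filter, 613 with array weights, 338 with the trended variance, 8 to 199 when 1 celastrol array was left out, and 750 without both vehicle arrays. Those vehicle arrays enter that comparison through the spread and through the choice of probe sets and genes tested. The 2 genes of the vehicle minus celastrol difference became 1 with no filter, with array weights and without both arrays, and 0 to 5 when 1 array was left out. Apart from this, the cause was not tested.

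With the replicate number as a block (replicate block), 81 genes passed, 59 of them among the 66, 1 gene against 4 days, 301 in celastrol and 0 in the vehicle minus celastrol difference. It gave 20 genes against 1 day. Same-numbered vehicle arrays correlated in their deviations at 0.236, 0.251 and 0.518 between 6 h and 1 day, and at -0.106 to 0.244 in the pairs with 4 days, so not every pair was over 0.1 and the numbers were not taken to pair the mice.

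Signs turned for small differences that had not passed. Without both arrays that stood apart Bhlhe40 was -0.038, Hlf -0.0038, Nfil3 -0.0064 and Myh7 0.036. Myh7 was also 0.00053 centred, 0.012 after quantile normalization and 0.025 with array weights. The fits that each left out 1 array spanned -0.062 to 0.093 for Bhlhe40, -0.0087 to 0.064 for Clock, -0.082 to 0.015 for Fbxl21, -0.0051 to 0.11 for Hlf, -0.079 to 0.059 for Myh7, -0.12 to 0.052 for Myl7, -0.016 to 0.073 for Nfil3 and -0.10 to 0.0015 for Rorb.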
